A study of Rattus norvegicus with 9 samples.

Results

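Marker genes of brain regions and of the choroid plexus, 7 in number, are described here in rat brain tissue, out of 32883 genes in the deposited table. They were picked by Ensembl ID, and earlier results of these data were known when the list was made. The genes are Ttr (ENSRNOG00000016275), Pmch (ENSRNOG00000004632), Pomc (ENSRNOG00000012686), Avp (ENSRNOG00000021229), Oxt (ENSRNOG00000021225), Th (ENSRNOG00000020410) and Slc6a3 (ENSRNOG00000017302). The study sequenced mRNA of 9 brain samples, 3 in each of 3 groups. Sham rats had a sham operation, MCAO rats had middle cerebral artery occlusion (a surgical model of ischaemic stroke, here with reperfusion according to the series title), and PN rats had the same occlusion and received Panax notoginseng, a medicinal plant rich in saponins. The sources used here do not give the dissected region, hemisphere, time after surgery, strain, sex, age or dose. They also do not say whether each sample is a different rat, so a p-value here refers to the spread of these samples, part of which may be technical. Libraries are named by group and sample code (MCAO 3B, for example).

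All 7 genes are classical markers of structures that make up a small part of the brain. Ttr encodes transthyretin, the carrier of thyroid hormone and retinol-binding protein that choroid plexus epithelium secretes into the cerebrospinal fluid. Neurons of the hypothalamus make the peptide precursors encoded by Pmch (melanin-concentrating hormone, from the lateral hypothalamus), Pomc (proopiomelanocortin, from the arcuate nucleus, and also a major product of the pituitary), Avp (vasopressin) and Oxt (oxytocin). Th encodes tyrosine hydroxylase, the rate-limiting enzyme of catecholamine synthesis, and Slc6a3 the dopamine transporter. The cell bodies of most brain dopamine neurons lie in the midbrain, so transcripts of both genes are abundant there, while the target areas in the forebrain receive mainly the proteins in axons.

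Most of the 7 genes were at low levels in these libraries, and Slc6a3 was not listed above 0 at all. Values are FPKM, fragments scaled to transcript length and library size. Of the 7 genes, 6 were listed above 0 in any library. The highest value outside Ttr was 1.88 FPKM, for Th in sham 4B. The median gene tested for group differences had a median of 10.16 FPKM over the libraries. Between 2 of the 7 genes (sham 9A) and 5 (MCAO 3B and MCAO 6B) were listed above 0 in a library, and between 0 (sham 5B and MCAO 6B) and 2 (MCAO 3B and PN 3A) reached 1 FPKM. Among the 22342 genes listed above 0 in any library, the mean level of Ttr over the 9 libraries exceeded that of 41.2% of genes, that of Pomc 33.3%, that of Th 32.8%, that of Avp 27.1%, that of Pmch 18.3% and that of Oxt 6.75%. The mean of Ttr includes 5 libraries at 0; its highest value, 8.03 FPKM in PN 6A, exceeded the highest value of 53.3% of these genes. The labelled tissue, brain, thus came with values of 0 for Ttr in 5 libraries and values of 1.88 FPKM or less for the markers of the hypothalamus and of dopamine neurons in every library. In bulk tissue, fewer cells of a type and less RNA per cell cannot be told apart.

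**Figure D1:**
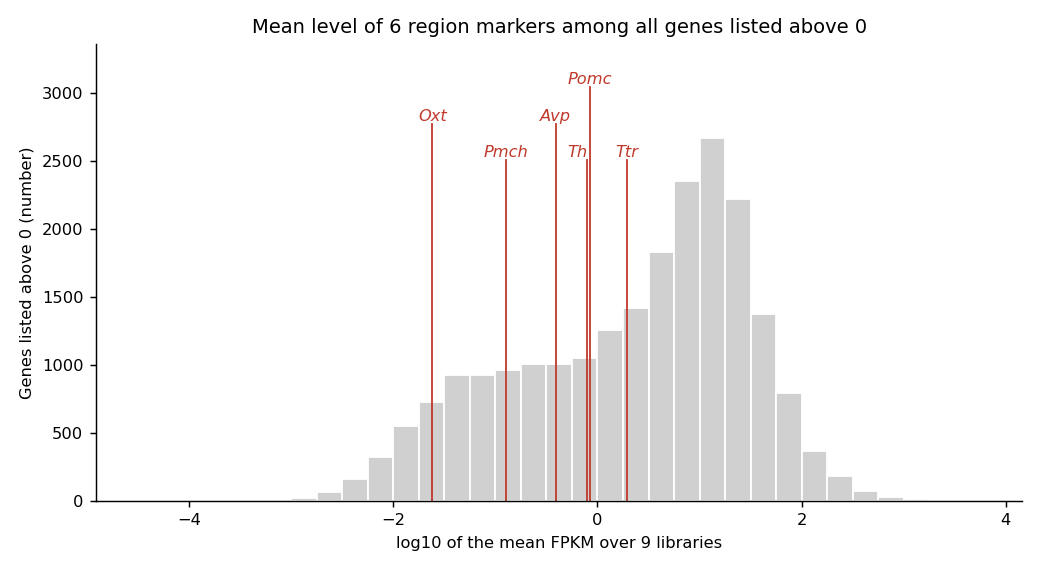
Number of genes listed above 0 (vertical axis) by log10 of their mean FPKM over the 9 libraries (horizontal axis), with red lines at the means of 6 markers. All 6 lie left of the main peak of the distribution; Slc6a3 is listed at 0 in every library and is not drawn.

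FPKM keeps no read numbers, so the absolute depth is unknown and no counting interval can be given. Relative depth, read from the steps of low values, ran from 1.0 in MCAO 3B to 1.33 in PN 7A. Each reading against MCAO 3B rested on 11 genes (PN 3A) to 21 (MCAO 7A), among 308 to 364 compared. Most low values did not lie on whole steps. In 1450 genes under 0.5 FPKM and above 0 in at least 4 libraries, values were multiplied by relative depth. Of those above the gene's lowest, 7.44% were whole multiples of it within 0.1%. A library listed 18239 to 18928 genes above 0. It also listed 8 to 17 genes at 0 that had a median of 5 FPKM or more across the series. Whether a 0 in this table is a true absence or a failed estimate was not tested. Genes with a 0 in a group are therefore given by their values, without a group mean in FPKM. In the fits and correlations below each 0 still enters as a value.

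Ttr, the choroid plexus marker, had the highest mean of the 7 but a median of 0 FPKM. It was listed at 0 in all 3 sham libraries. In the MCAO libraries it was at 2.89 FPKM in 3B, 0.894 in 6B and 5.77 in 7A. In the PN libraries it was at 8.03 FPKM in 6A, the highest value of any of the 7 genes, and listed at 0 in 3A and 7A. Every MCAO library therefore lay above every sham library, while the PN libraries lay on both sides of the MCAO range. Multiplied by relative depth, which undoes the scaling to library size, the 4 values above 0 spanned 8.96-fold. The spread of Ttr within groups, an SD of 1.185 on the log2(FPKM + 1) scale, was larger than that of 98.6% of the 15051 genes tested (median SD 0.3186).

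**Figure D2:**
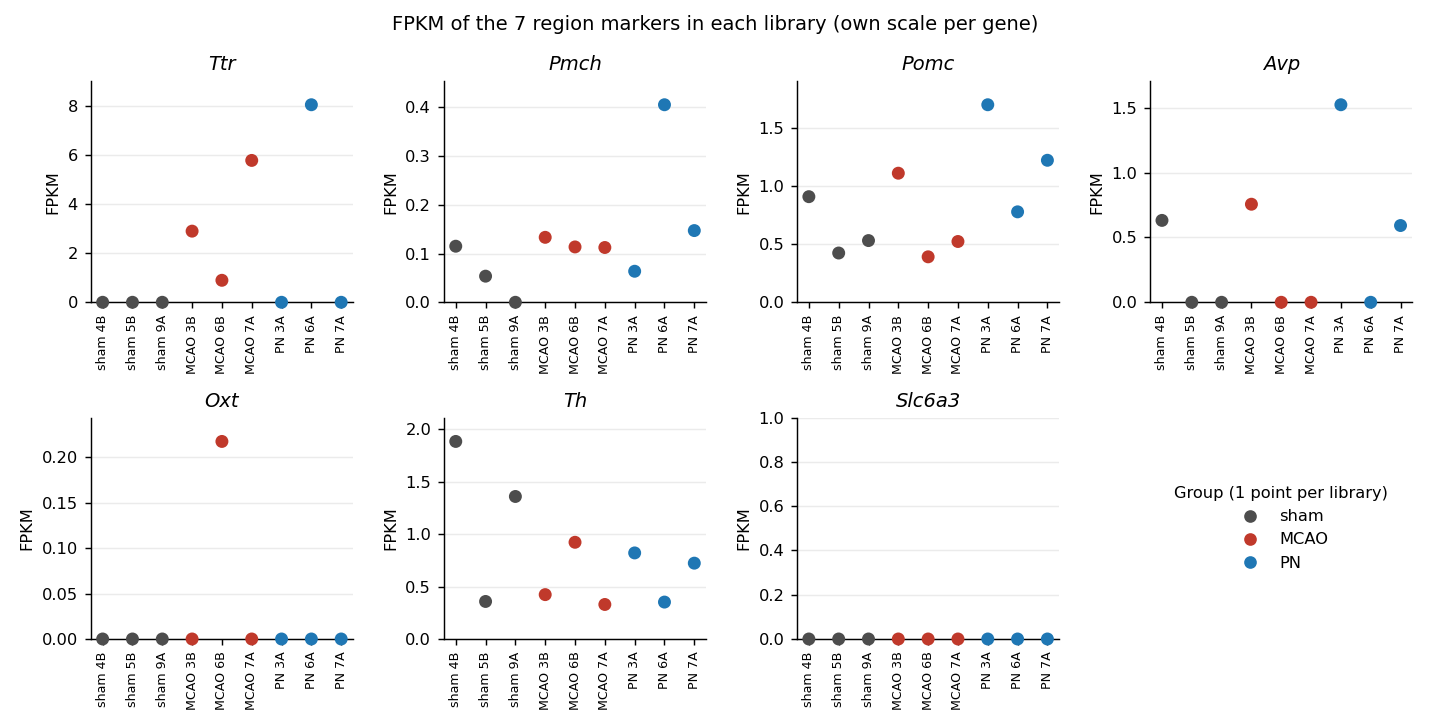
FPKM (vertical axis, own scale per gene) of the 7 markers in each of the 9 libraries (horizontal axis), 1 point per library, coloured by group. Ttr is above 0 in the 3 MCAO libraries and PN 6A, Oxt in MCAO 6B, and Slc6a3 in no library; Pomc and Th are above 0 in all 9.

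The difference in Ttr between MCAO and sham did not pass the test over all genes (limma on log2(FPKM + 1), adjusted p = 0.437, unadjusted p = 0.0415, with 3 of 3 MCAO libraries above the whole sham group). Groups that do not overlap, with MCAO higher, were found in 8.59% of the genes tested, and an unadjusted p under 0.05 with MCAO higher in 4.87%. With no filter on low values the unadjusted p of Ttr was 0.0506 (limma, adjusted p = 0.571). Ttr entered the test only through the 3 libraries in which it reached 1 FPKM, MCAO 3B, MCAO 7A and PN 6A. No fold is given because the sham libraries are all listed at 0. PN against MCAO gave a log2 difference of -0.82 with a 95% interval from -2.61 to 0.97 (limma, adjusted p = 0.671). This value rests on single libraries: it was -1.88 without PN 6A, -0.29 without PN 3A or without PN 7A, and -0.38 without MCAO 7A. PN against sham did not pass either (limma, adjusted p = 0.974).

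A level of several FPKM in some libraries and 0 in most others was uncommon in this table. Of 12123 genes that reached 5 FPKM in at least 1 library, 30 were listed at 0 in 5 or more, and Ttr was among them. Ttr was the only one of these that was above 0 in exactly MCAO 3B, MCAO 6B, MCAO 7A and PN 6A; 10 genes in all had this arrangement, 6 of them reaching 1 FPKM.

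The libraries with Ttr were also those at one end of the largest axis of variation among all genes. The first principal component, computed from 15049 genes without the 7 markers, held 32.1% of the variation. The 4 libraries with Ttr above 0 had the 4 lowest scores on it: -43.4 in MCAO 7A, -27.1 in PN 6A, -23.4 in MCAO 3B and -12.5 in MCAO 6B. The 5 libraries that list Ttr at 0 scored from -3.02 in sham 9A to 62.3 in PN 3A. The order of these 4 libraries along the component matched the order of Ttr except that PN 6A and MCAO 7A changed places. This relation was noticed after the values were seen and is given as a description. PN 6A thus lay among the MCAO libraries on this component, and the other PN libraries did not.

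**Figure D3:**
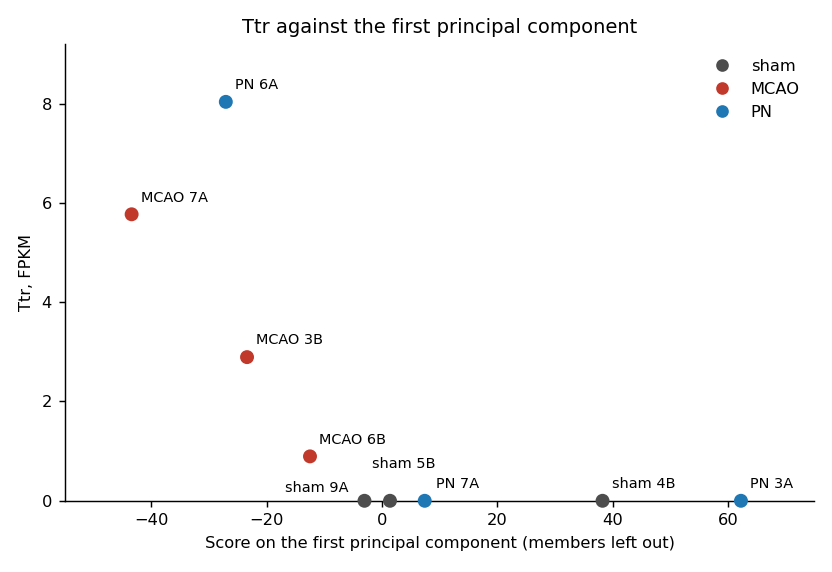
Ttr in FPKM (vertical axis) against the score of each library on the first principal component of 15049 other genes (horizontal axis), 1 point per library, coloured by group. The 4 libraries with Ttr above 0 lie at scores of -12.5 or lower and the 5 at 0 at scores of -3.02 or higher.

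Of the 4 hypothalamic genes, Pomc was the most evenly detected and Oxt the least. Pomc was above 0 in all 9 libraries. In sham it was at 0.911 FPKM in 4B, 0.425 in 5B and 0.532 in 9A (mean 0.623 ± 0.255, SD, n = 3). The MCAO values were 1.11 FPKM in 3B, 0.392 in 6B and 0.524 in 7A (mean 0.677 ± 0.384, SD, n = 3). In PN they were 1.70 FPKM in 3A, 0.780 in 6A and 1.22 in 7A (mean 1.24 ± 0.462, SD, n = 3). The sham and MCAO ranges overlap broadly. PN 3A and PN 7A had the highest values of the series, PN 6A had the median of the 9, and PN overlapped both other groups.

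The differences in Pomc did not pass the test in any comparison. PN against MCAO gave 0.42 on the log2(FPKM + 1) scale, with a 95% interval from -0.19 to 1.03 (limma, adjusted p = 0.524; 0.27 without PN 3A). PN against sham gave 0.45, with an interval from -0.16 to 1.06 (limma, adjusted p = 0.974), and MCAO against sham 0.03, from -0.58 to 0.65 (limma, adjusted p = 0.976). Pomc reached 1 FPKM in exactly the 3 libraries that the filter on low values requires, MCAO 3B, PN 3A and PN 7A. Its spread within groups exceeded that of 41.5% of the genes tested.

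Avp was listed above 0 in 4 libraries that came from all 3 groups. It was at 0.631 FPKM in sham 4B, 0.756 in MCAO 3B, 1.52 in PN 3A and 0.592 in PN 7A, and listed at 0 in the other 5. Each group thus held at least 1 library with Avp and at least 1 without. Without the filter on low values, which Avp does not meet, PN against MCAO gave 0.40 on the log2(FPKM + 1) scale (95% interval from -0.44 to 1.24, limma, adjusted p = 0.724). The interval for PN against sham ran from -0.41 to 1.28 around 0.43 (limma, adjusted p = 0.932), and that for MCAO against sham from -0.81 to 0.88 around 0.04 (limma, adjusted p = 1). The PN differences rest largely on PN 3A: without it they were 0.065 against MCAO and 0.10 against sham, and without PN 6A 0.73 and 0.77.

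Avp and Pomc varied together from library to library. The 4 libraries with Avp were the 4 with the highest Pomc, and PN 3A was highest in both. Over the 9 libraries Pearson's r of log2(FPKM + 1) was 0.936 (exact permutation p = 0.00132, two-sided, 0.0132 adjusted over the 10 pairs of the 5 genes above 0 in at least 4 libraries) and Spearman's rho 0.858 (exact permutation p = 0.00661). Without PN 3A and MCAO 6B, the libraries farthest from the median of Pomc, r was 0.880. Of 15050 other genes tested, 4 had a higher r with Avp than Pomc had, where negative r was not counted. As deviations from the group means r was 0.971, so the relation is as close within groups. The permutation within groups could not pass after adjustment, so its outcome decides nothing (exact permutation, adjusted p = 0.185). Its arrangements are few, and Avp is tied at 0 within sham and within MCAO. Over all pairings, the adjusted p missed the threshold when sham 4B or MCAO 3B was left out (exact permutation, adjusted p = 0.0595 each). It also did when PN 3A was left out (exact permutation, adjusted p = 0.119), and r in these cases ran from 0.881 to 0.944. The values are low, 5 of the 9 share a 0 in Avp, and the libraries with Avp carry both letters of the sample codes. Every PN library carries the letter A, while sham and MCAO carry A and B, so letter and treatment are partly confounded.

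**Figure D4:**
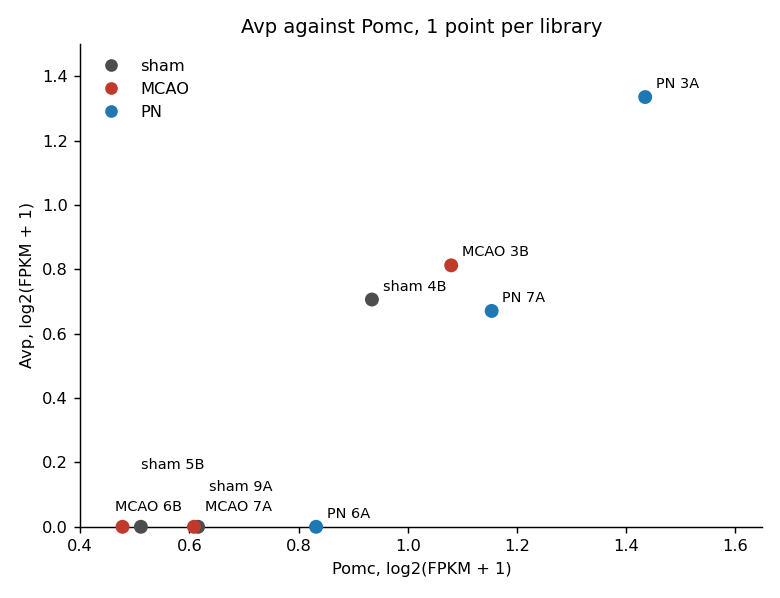
Avp (vertical axis) against Pomc (horizontal axis), both as log2(FPKM + 1), 1 point per library, coloured by group. The 4 libraries with Avp above 0 (sham 4B, MCAO 3B, PN 7A and PN 3A) are the 4 with the highest Pomc, and each group has libraries both with and without Avp.

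The promoters of these genes are shown because theirs was the one pair of the 10 that passed the correlation test. They are 300-base windows around the start of the gene in the RefSeq table (build GRCr8), 5′ to 3′ on the gene's own strand. Avp lies on the minus strand at chr3:138248473-138248772 and Pomc on the plus strand at chr6:32659103-32659402. Capitals mark matches, on either strand, to the TATA box motif TATAAA, to TGACG, the core of the cyclic AMP response element, or to the GC box motif GGGCGG, and no match overlapped another.
Avp: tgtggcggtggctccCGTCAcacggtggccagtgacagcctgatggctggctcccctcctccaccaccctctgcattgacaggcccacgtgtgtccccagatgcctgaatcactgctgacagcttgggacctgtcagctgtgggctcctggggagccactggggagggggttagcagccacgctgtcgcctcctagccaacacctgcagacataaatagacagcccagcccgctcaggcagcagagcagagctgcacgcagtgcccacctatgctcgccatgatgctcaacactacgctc
Pomc: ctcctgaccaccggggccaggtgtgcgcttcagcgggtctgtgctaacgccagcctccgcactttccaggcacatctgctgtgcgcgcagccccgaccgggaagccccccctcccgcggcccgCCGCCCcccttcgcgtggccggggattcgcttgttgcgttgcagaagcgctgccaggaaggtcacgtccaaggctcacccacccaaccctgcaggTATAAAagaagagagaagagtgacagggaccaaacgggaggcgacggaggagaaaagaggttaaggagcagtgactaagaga
The Avp window held 1 match to TGACG, as its reverse complement CGTCA, and none to the other 2 motifs. The Pomc window held 1 match to TATAAA and 1 to GGGCGG, the latter as its reverse complement, and none to TGACG, so these windows had no searched motif in common. Over all 33469 promoters of this length in the table, 14.2% held TATAAA, 21.2% TGACG and 33.1% GGGCGG.

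Oxt and Avp are neighbours in the RefSeq gene table (GRCr8), with 0 listed genes between them, and both are expressed in magnocellular neurons of the hypothalamus. Oxt was at 0.218 FPKM in MCAO 6B and listed at 0 in the 8 other libraries. MCAO 6B is one of the libraries that list Avp at 0, so the neighbours were above 0 in no library in common. In all, 1801 genes of the table were above 0 in exactly 1 library. No fold is given for Oxt, since it has a 0 in every group.

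Pmch was above 0 in 8 libraries, at 0.405 FPKM or less. In sham it was at 0.115 FPKM in 4B, 0.0536 in 5B and listed at 0 in 9A. The MCAO libraries were at 0.133 FPKM in 3B, 0.114 in 6B and 0.112 in 7A. The PN libraries were at 0.0636 FPKM in 3A, 0.405 in 6A and 0.147 in 7A. The highest value, that of PN 6A, stands apart from the others, and the groups overlap. Multiplying FPKM by relative depth undoes the scaling to library size. After this step sham 5B and PN 3A had the same value within 0.1%, and sham 4B and MCAO 6B had 2.0 times it, within the same tolerance. On this scale MCAO 7A was at 1.8962 times the lowest value, MCAO 3B at 1.944, PN 7A at 2.8568 and PN 6A at 7.1167. How many reads the lowest value stands for is not known.

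Pmch did not pass the test in any comparison. Without the filter, PN against sham gave 0.18 on the log2(FPKM + 1) scale (95% interval from -0.05 to 0.41, limma, adjusted p = 0.932), PN against MCAO 0.10 (from -0.13 to 0.33, adjusted p = 0.757) and MCAO against sham 0.09 (from -0.14 to 0.32, adjusted p = 0.797). Without PN 6A the PN differences were 0.066 against sham and -0.020 against MCAO. This scale compresses differences at such low levels. PN 6A, the library highest in Pmch, was also the library highest in Ttr. Over the 9 libraries the correlation of Ttr with Pmch was r = 0.706 (exact permutation p = 0.0172, 0.0860 adjusted over the 10 pairs) and rho = 0.493 (exact permutation p = 0.182). Without PN 6A and MCAO 7A, the libraries farthest from the median of Ttr, r was 0.449. Leaving out PN 6A alone gave 0.415 and leaving out MCAO 7A alone 0.842, so this relation rests on PN 6A.

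Of the genes of dopamine neurons, Th was above 0 in every library and Slc6a3 in none. Th was at 1.88 FPKM in sham 4B, 0.358 in 5B and 1.36 in 9A (mean 1.20 ± 0.775, SD, n = 3). The MCAO libraries were at 0.423 FPKM in 3B, 0.922 in 6B and 0.329 in 7A (mean 0.558 ± 0.319, SD, n = 3). The PN libraries were at 0.820 FPKM in 3A, 0.352 in 6A and 0.723 in 7A (mean 0.632 ± 0.247, SD, n = 3). The highest values are those of sham 4B and 9A, but sham 5B is close to the lowest MCAO and PN libraries, so all 3 groups overlap. Slc6a3 was listed at 0 in each of the 9 libraries, as were 10541 genes of the table, and no upper limit can be given without read numbers.

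Th did not pass the test in any comparison. MCAO against sham gave -0.45 on the log2(FPKM + 1) scale, with a 95% interval from -1.10 to 0.21 (limma without the filter, adjusted p = 0.696). It was -0.22 without sham 4B and -0.76 without sham 5B. PN against sham gave -0.37, from -1.03 to 0.28 (limma, adjusted p = 0.932; -0.14 without sham 4B and -0.69 without sham 5B), and PN against MCAO 0.07, from -0.58 to 0.73 (limma, adjusted p = 0.965). Th was lowest in MCAO 7A and PN 6A, which were the libraries highest in Ttr. The correlation between the genes was r = -0.635 (exact permutation p = 0.0661, 0.220 adjusted over the 10 pairs) and rho = -0.657 (exact permutation p = 0.0622). Without PN 6A and MCAO 7A r was -0.414. Correlations of Th with the hypothalamic genes did not pass either. With Pomc r was 0.0910 (exact permutation p = 0.814), with Avp 0.235 (exact permutation p = 0.546) and with Pmch -0.399 (exact permutation p = 0.287). These values shifted when the libraries farthest from the median of the other gene were left out. Without PN 3A and MCAO 6B r with Pomc was 0.151. It was 0.530 with Avp without PN 3A and MCAO 3B, and 0.160 with Pmch without PN 6A and sham 9A.

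**Figure D5:**
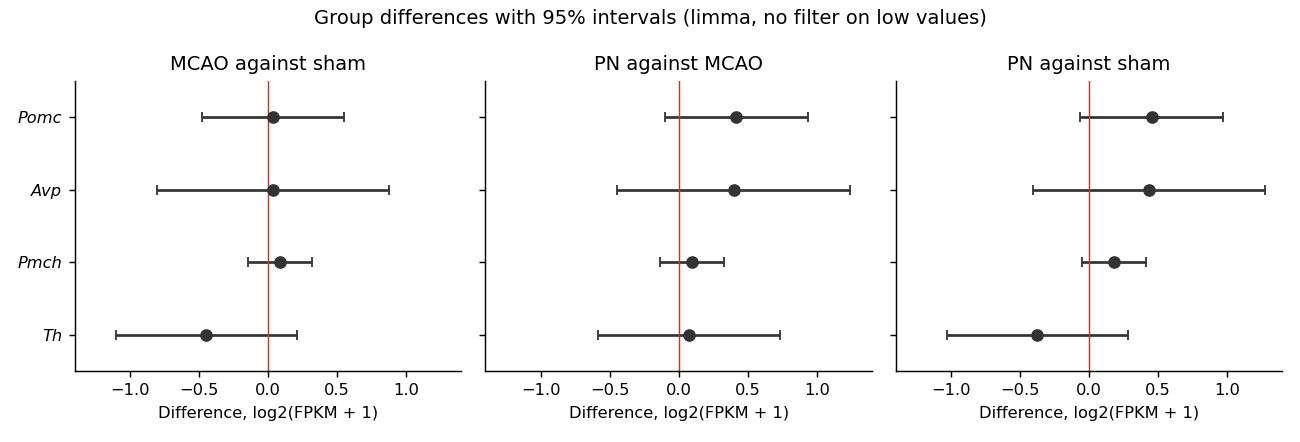
Group differences of 4 markers on the log2(FPKM + 1) scale (horizontal axis) in the 3 comparisons, with 95% intervals from limma without a filter on low values (points are estimates, bars intervals, n = 3 libraries per group). Every interval includes 0; Ttr and Oxt are left out because a whole group is listed at 0, and Slc6a3 because all libraries are.

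None of the 7 genes passed the adjusted threshold in any of the 3 comparisons. Of the 15051 genes tested, 0.00664% passed for the occlusion (MCAO and sham), 0.00664% for the treatment (PN and MCAO) and 0.0199% for PN and sham, so a count of 0 is close to the background. With array weights 377 of the 15051 genes passed for PN and MCAO, still without Ttr or Pomc (limma, adjusted p = 0.208 and 0.298). Only Ttr and Pomc met the filter of 1 FPKM in at least 3 libraries. Without the filter the shares of 22342 genes that passed were 0.00448%, 0.0179% and 0.0179% in the same order, and the 6 genes listed above 0 had no adjusted p under 0.562 (limma). In that fit 0 of 6 reached an unadjusted p under 0.05 in any comparison, where 8.71%, 10.5% and 4.24% of genes did. Groups without overlap were seen in 1 of the 6, Ttr in MCAO and sham, where 15.1% of genes had them, and in 0 of 6 for the other comparisons, where 15.5% and 7.46% did. The median log2 difference over the markers above 0 in both groups was 0.04 over 4 genes for MCAO less sham, 0.10 over 5 for PN less MCAO and 0.31 over 4 for PN less sham. Over all 22342 genes the corresponding medians were 0, 0.03 and 0.02. The median for PN less sham covers values in both directions, from -0.37 for Th to 0.45 for Pomc, and was 0.18 without PN 3A. With 1 library left out, that for MCAO less sham ranged from -0.19 (without MCAO 3B) to 0.14 (without sham 4B), and that for PN less MCAO from 0.065 (without PN 3A) to 0.23 (without MCAO 6B). The comparisons share libraries.

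How closely other genes followed each marker over the 9 libraries differed from marker to marker. Among the genes tested, r of at least 0.95 was reached by 10 genes with Ttr, by 1 with Pomc, by 1 with Avp and by none with Pmch, Th or Oxt. At r of at least 0.9 the numbers were 43 for Ttr, 48 for Avp, 39 for Pomc, 4 for Pmch, 4 for Oxt and 2 for Th. At r of -0.9 or lower they were 53 for Ttr, 37 for Avp, 29 for Pomc, 3 for Pmch, 13 for Oxt and 2 for Th. Oxt was above 0 in 1 library only, so its r depends on that library alone. These genes are not named, since no table used here pairs their IDs with symbols. The points share the libraries, their depth and their scaling.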

How the data were processed

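The authors deposited 1 table of FPKM values, per the file headers, with Ensembl gene IDs and 9 sample columns. Tools named in the submitters' processing notes, with no roles, are StringTie 1.3.1, HISAT2, Bowtie2 2.2.8 and fastp 0.18.0. The sources used here do not name the genome build, annotation or strand setting. Columns were assigned by the sample code in the title. Code 7A occurs in both MCAO and PN, and there the start of the column name decided. MCAO 7A shares it with MCAO 3B and MCAO 6B, and PN 7A with PN 6A alone. The column names of PN 3A and sham 9A start differently from those of the other libraries of their groups. The sources used here do not say what these starts mean. The 7 symbols came with the choice of genes. The RefSeq gene table paired 0 of the IDs with a symbol, so lists of other choroid plexus, hypothalamic, dopamine neuron and further regional genes could not be applied. The 7 genes, the lists and the tests were chosen with earlier results of these data known.

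Relative depth was the ratio at which values under 0.15 FPKM pile up between libraries (closure error at most 1.34e-05, log2). Genes that reached 1 FPKM in at least 3 of 9 libraries (15051) were tested as log2(FPKM + 1), which understates differences of low genes, with limma 3.58.1 in R 4.3.3. All 9 libraries entered 1 model with a mean for each group and a trended variance, two-sided, with Benjamini-Hochberg adjustment over all genes and a threshold of 0.05. Members that miss this filter were taken from the same model over all 22342 genes above 0 in any library. Both steps were tested on simulated data. Correlations used exact permutation over all pairings (Python 3.11.15, numpy 2.4.6, scipy 1.17.1), for genes above 0 in at least 4 libraries, a limit set after the values were seen. Named genes were the 7 and, where symbols could be paired, the 3 most alike genes and the 4 most abundant of each list. Alternatives were a pseudocount of 0.1; a minimum of 5 FPKM or none; scaling to equal sums or by median of ratios; robust empirical Bayes; array weights; the 6 compared libraries alone; the code letter as covariate; the code number as block; and leaving out single libraries. Those of the principal component were added after the data were seen.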

Additional observations from a re-analysis of the deposited data

How the results depend on the processing

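The count of markers called stayed at 0 in each comparison under every alternative run (array weights, which called 377 of all genes for PN and MCAO, among them), the replicate block for PN and MCAO (0 markers) included; with a minimum of 5 FPKM no marker was left to test. Of 281 recomputed differences of single markers, 272 kept their direction and none reached the threshold (smallest adjusted p = 0.154, limma). Many of the 272 could not turn, because the setting leaves the difference itself unchanged by construction. Such settings were leaving out a library of the group not compared, robust empirical Bayes, the compared libraries alone and the code number as block. Others were no filter and, for MCAO and sham, the code letter as covariate. The count of 272 therefore overstates how stable the directions were. The 9 that turned came from leaving out 1 library, over which MCAO less sham ranged from -0.14 to 0.16 for Pomc and from -0.24 to 0.27 for Avp, and PN less MCAO from -0.020 to 0.18 for Pmch and from -0.031 to 0.23 for Th (log2). Correlations between markers ranged, with 1 library left out, from 0.415 to 0.842 for Ttr and Pmch (past the threshold without PN 7A, 0.764, adjusted p = 0.0357, exact permutation), from -0.324 to 0.0125 for Ttr and Pomc, from -0.0188 to 0.343 for Pmch and Pomc, from -0.326 to 0.273 for Pmch and Avp, from -0.045 to 0.233 for Pomc and Th and from 0.881 to 0.973 for Pomc and Avp. As deviations from group means r was -0.401 for Pmch and Pomc and 0.971 for Pomc and Avp. The latter could not pass the threshold there, since arrangements within groups are few and Avp is tied at 0 within sham and within MCAO. The 4 libraries with Ttr had the 4 lowest scores on the first component under all 3 alternatives added for it. No source says that equal code numbers mark 1 animal or batch, and same-numbered MCAO and PN libraries deviated from their group means with correlations of 0.06, -0.40 and -0.16. Since read numbers are unknown, no detection limit was derived for values of 0.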
